A study of Mus musculus with 18 samples.

Results

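Epididymal white adipose tissue (eWAT, the fat pad beside the epididymis) from high-fat diet-prone mice (HP) was compared with eWAT from mice on a normal diet (ND). The comparison rests on 6 of the 18 libraries of the series, HP 1, HP 2 and HP 3 against ND 1, ND 2 and ND 3, and runs across every gene that reached 1 FPKM in 3 or more eWAT libraries of the fit. Of 23474 gene identifiers, 14430 passed with all 9 eWAT libraries. A repeat without ND 1 and HR 2, the libraries with the most testis transcripts, kept 7 libraries and tested 13054 genes. FPKM is a fragment count scaled by transcript length and by the mapped fragments of the library. It allows levels to be compared between genes, and it depends on every other transcript of the library.

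The HP mice were male C57BL/6J animals fed the high-fat diet for 12 weeks from 5 weeks of age, and they were 17 weeks old. The ND mice were male C57BL/6J animals of the same age that had the normal diet over the same weeks. A further 3 eWAT libraries, of mice called resistant to the high-fat diet (HR), entered the fits only to share the estimate of the spread. All mice were housed singly, groups are labelled as 10 mice each, and neither the fat content of the diets nor the criterion for prone and resistant animals is given in the labels. The stated interest was in expression tied to lipid and glucose metabolism. Whether the 3 libraries of a group stem from different mice is not said in the labels, so the spread that a p-value is set against could be technical.

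In white fat, adipocytes store triglyceride, release fatty acids by lipolysis and secrete hormones such as leptin and adiponectin. When the pad expands in obesity, macrophages gather around dying adipocytes, take up their lipid, and switch on genes of lysosomes, lipid handling and matrix breakdown. The genes below follow these roles, first the macrophage and its lysosome, then the matrix, then the adipocyte.

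Cell type markers were checked first. Adipocyte transcripts (Adipoq, Plin1, Fabp4, Cidec, Lipe and Pnpla2) summed to 15997 to 18683 FPKM in HP and to 4096, 31704 and 20555 FPKM in ND 1, ND 2 and ND 3, so the tissue label fitted, with ND 1 lowest. Spermatid transcripts (Prm1, Prm2, Tnp1 and Tnp2) reached 1738, 22.9 and 24.2 FPKM in HP 1, HP 2 and HP 3, against 92413, 128 and 2282 FPKM in ND 1, ND 2 and ND 3. For 7 epididymal genes the sums were 0.496, 1295 and 0.644 FPKM in HP, against 16964, 6.88 and 11.4 FPKM in ND. ND 1 thus carried RNA of testis and epididymis, HP 1 and ND 3 lesser amounts of testis RNA and HP 2 some epididymal RNA. Transcripts of mitochondrial DNA made 11.1% to 13.9% of all FPKM in HP and 1.72%, 24.4% and 15.2% in ND. Across genes, correlations of log values ran from 0.960 to 0.985 among the HP libraries, and the 2 ND libraries left in the repeat had 0.934. ND 1 brought the lowest value within ND to 0.615. Between HP and ND they ran from 0.886 to 0.952 without ND 1, so ND 2 and ND 3 resembled each other less than the closest HP and ND pair. Absolute depth is unknown, and in bulk tissue fewer cells of a type and less RNA per cell cannot be told apart.

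**Figure D1:**
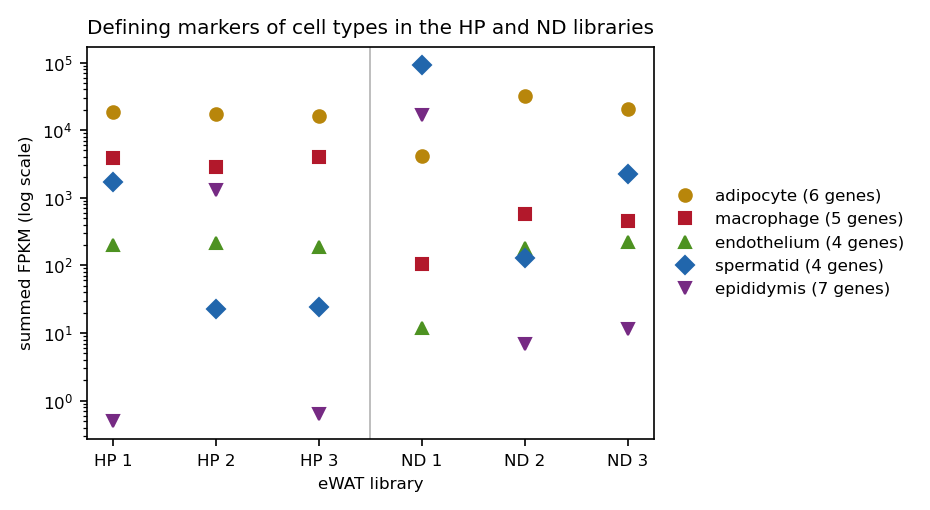
Summed FPKM of defining markers of 5 cell types (log scale) in each HP and ND library of eWAT; each symbol is 1 library. Spermatid and epididymal transcripts peak in ND 1, where adipocyte and endothelial transcripts are lowest, and macrophage transcripts are higher in the 3 HP libraries than in any ND library.

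Over 7 libraries, 2047 genes were higher in HP (15.7% of those tested) and 966 lower (7.4%) at a limma adjusted p under 0.05. Of these, 1146 were higher by more than 1 on the log2 scale and 360 lower by more than 1. Over 9 libraries 298 genes were higher (2.07%) and 6 lower (0.0416%), and 303 of those 304 were called in the same direction over 7 libraries. With ND 1 alone left out, so that HR 2 stayed in the estimate of the spread, 231 were higher and 13 lower (limma). Of 265 genes followed in that fit, 191 lost their call. Without HP 3 the 7-library fit called 1508 genes. The 9-library count was 0 when any of HP 1, HP 2, HP 3, ND 2, ND 3 or HR 1 was dropped (unadjusted p under 0.05 in 925 to 2324 genes, limma), 134 without HR 3 and 593 without HR 2. Log2 differences are HP minus ND on log2(FPKM + 1), which understates changes of low genes, and are from the 7-library fit unless 9 libraries are named. The median over all genes was 0.01 over 7 libraries and 0.09 over 9.

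**Figure D2:**
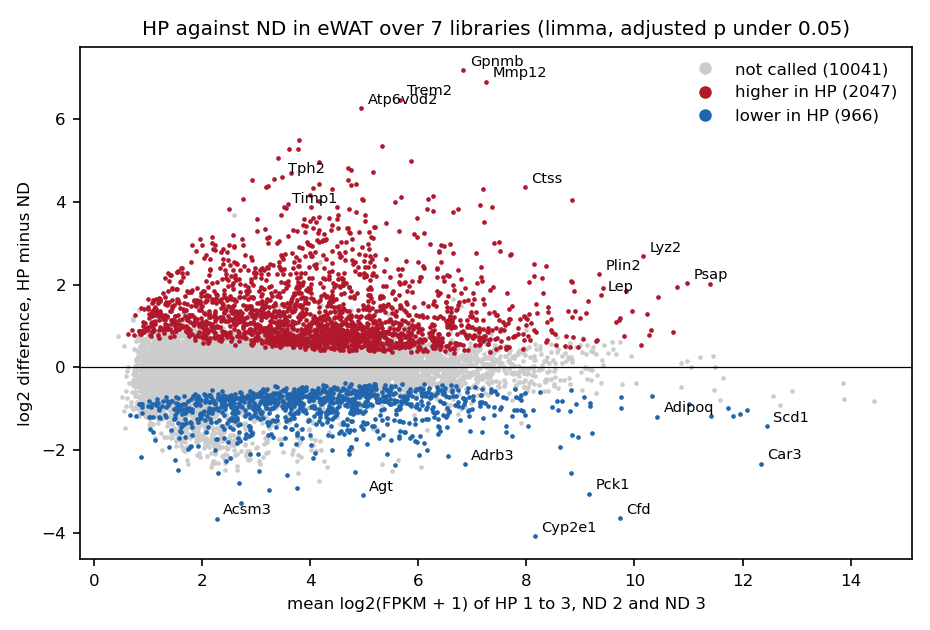
Log2 difference (HP minus ND) against mean log2(FPKM + 1) for the 13054 genes of the 7-library fit; each dot is a gene, red higher and blue lower in HP at a limma adjusted p under 0.05. The upper edge is held by macrophage genes such as Gpnmb and Mmp12, and the lower edge by Cyp2e1, Cfd and Pck1, which adipocytes express.

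The steepest rises were of genes that mark macrophages loaded with lipid. Gpnmb, a membrane glycoprotein of such cells, had 874, 699 and 958 FPKM in HP 1, HP 2 and HP 3, against 2.32, 3.75 and 6.01 FPKM in ND 1, ND 2 and ND 3. Mmp12, the macrophage elastase, had 970, 828 and 1379 FPKM in HP, against 0.0959, 9.70 and 5.95 FPKM in ND. For both genes the HP and ND libraries were far apart, and ND 1 was the lowest of the 6. Gpnmb was higher by 7.18 (SE 0.21, limma adjusted p = 3.65e-05) and Mmp12 by 6.91 (SE 0.26, limma adjusted p = 6.84e-05). Over 9 libraries the differences were 7.45 (SE 0.74) and 7.90 (SE 0.96), both with a limma adjusted p of 0.0196.

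Trem2, the lipid receptor of macrophages, had 338, 232 and 365 FPKM in HP, against 7.58, 2.30 and 2.61 FPKM in ND. Its signalling adaptor Tyrobp had 536, 411 and 499 FPKM in HP, against 24.4, 35.5 and 28.7 FPKM in ND. Receptor and adaptor were both higher in each HP library, by 6.47 for Trem2 and 3.87 for Tyrobp. Of 18 genes listed for lipid-associated macrophages, all tested, 16 were called higher and 0 lower, at a median of 3.41. Over 9 libraries 9 rose, at a median of 3.54. Also higher were the integrin Itgax (CD11c, 4.77), the endosomal glycoprotein Cd68 (4.32), the secreted phosphoprotein Spp1 (osteopontin, 4.32) and the lectin Lgals3 (4.04). The lipid droplet coat protein Plin2 had 1299, 1038 and 1336 FPKM in HP, against 58.8, 233 and 275 FPKM in ND (2.26). Spp1 was uneven in ND, at 0.398, 0.218 and 9.17 FPKM. Not called were Lgals1 and the fatty acid receptor Cd36, which had 1865, 2176 and 2254 FPKM in HP, against 43.0, 2230 and 1595 FPKM in ND, and is also an adipocyte gene.

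Markers of macrophages in general moved the same way, with 19 of 21 tested members (22 listed) higher and 1 lower, at a median of 2.70 (9 higher and none lower over 9 libraries). Adgre1, which encodes the F4/80 antigen, had 213, 195 and 259 FPKM in HP, against 0.651, 16.0 and 14.3 FPKM in ND (3.78, SE 0.22, limma adjusted p = 0.000136). Spi1, the transcription factor PU.1 of myeloid cells, had 97.9, 78.3 and 108 FPKM in HP, against 2.20, 8.14 and 7.83 FPKM in ND (3.401). The pore-forming Mpeg1 was higher by 3.82 and the antigen-processing protease Ctss by 4.37. Csf1r, the receptor for the growth factor of macrophages, was higher by 2.20. Lyz1 fell by 1.42 while Lyz2 was higher by 2.70, but these lysozyme genes are near copies whose reads may be split between them.

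Genes shared with osteoclasts, the bone-resorbing relatives of macrophages, rose for 11 of 16 tested members (18 listed), and 1 fell. Atp6v0d2, a proton pump subunit, had 165, 164 and 196 FPKM in HP, against 2.04, 1.42 and 1.16 FPKM in ND (6.26, SE 0.16, limma adjusted p = 3.65e-05). The collagen-cutting cathepsin Ctsk had 257, 193 and 291 FPKM in HP, against 1.12, 13.6 and 11.9 FPKM in ND (4.15). Dcstamp, which macrophages need to fuse, had 8.23, 6.39 and 10.2 FPKM in HP and at most 0.235 FPKM in ND (2.97). Tnfrsf11a, the receptor for RANK ligand, was higher by 2.72. Acp5, the tartrate-resistant phosphatase used to stain osteoclasts, was not called: it had 148, 137 and 161 FPKM in HP, against 42.9, 204 and 174 FPKM in ND (-0.34, SE 0.14, limma adjusted p = 0.127). Mmp9, a gelatinase of osteoclasts, fell by 1.15, at under 4 FPKM in all 6 libraries.

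Resident-type macrophage markers were mixed, with 6 of 16 tested members (18 listed) higher and 2 lower, at a median of 0.12, and none called over 9 libraries. The mannose receptor Mrc1 (CD206) had 58.7, 64.6 and 74.7 FPKM in HP, against 1.83, 24.4 and 19.5 FPKM in ND (1.55), and the folate receptor Folr2 was higher by 1.60. Lyve1, a hyaluronan receptor of perivascular macrophages and of lymphatic vessels, had 7.53, 6.99 and 6.43 FPKM in HP, against 0.353, 11.7 and 11.7 FPKM in ND (-0.67). Retnla, a type 2 response gene, had 408, 320 and 190 FPKM in HP, against 272, 1218 and 672 FPKM in ND (-1.63). In ND 1 both were within or below the HP values, so the falls of Lyve1 and Retnla rest on ND 2 and ND 3. The haemoglobin scavenger Cd163 was not called (-0.55, SE 0.24, limma adjusted p = 0.157).

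Ratios within a library remove its scaling. They remove the size of its macrophage signal only for genes that macrophages alone make, and only as far as Adgre1 tracks that signal. Adgre1 rose more than Csf1r or C1qa, and any gene that rose less than Adgre1 is lower per Adgre1. Per FPKM of Adgre1, Mmp12 stood at 4.56, 4.24 and 5.32 in HP, against 0.147, 0.605 and 0.415 in ND. Itgax per Adgre1 stood at 0.480, 0.399 and 0.490 in HP, against 0.244, 0.139 and 0.229 in ND. Lyve1 per Adgre1 stood at 0.0354, 0.0358 and 0.0248 in HP, against 0.542, 0.731 and 0.816 in ND. Per Adgre1, Mmp12 and Itgax were thus higher and Lyve1 lower in each HP library than in any ND library. Cd163 (0.0359 to 0.0817 in HP, 1.10 to 1.84 in ND), Mrc1 (0.276 to 0.331 in HP, 1.36 to 2.81 in ND) and Retnla (0.732 to 1.92 in HP, 46.9 to 417 in ND) were also lower per Adgre1. So were genes that are not resident-type markers, such as Csf1r (0.730 to 0.850 in HP, 2.29 to 7.34 in ND), Cd9 (0.646 to 0.8004 in HP, 2.06 to 25.3 in ND), C1qa (0.848 to 1.13 in HP, 3.76 to 80.7 in ND) and Ctsd (13.1 to 15.1 in HP, 51.6 to 581 in ND). For these 10 genes the groups did not overlap, and each reached the smallest p that 3 against 3 allows (two-sided exact permutation test, p = 0.1). Adjusted over the 51 ratios tested, that p is 0.165, so no ratio can pass 0.05. ND 1 has only 0.651 FPKM of Adgre1, so its ratios rest on a low value. Trem2 (11.6 in ND 1) and Atp6v0d2 (3.13 in ND 1) overlapped per Adgre1, with ND 1 above every HP library and ND 2 and ND 3 below.

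**Figure D3:**
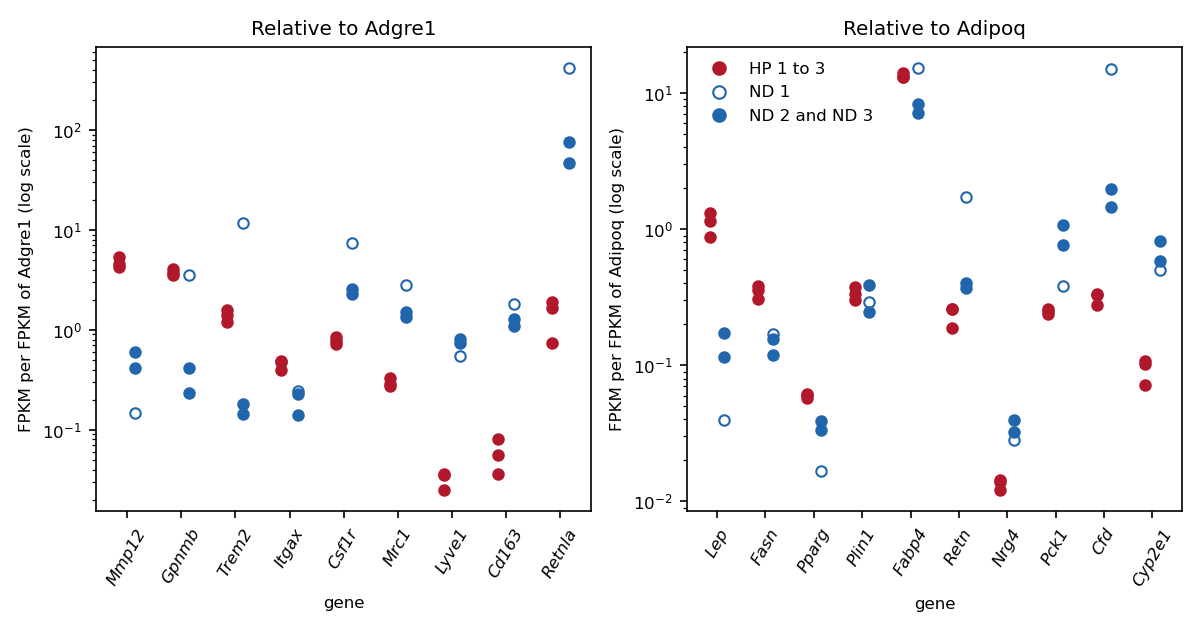
FPKM of each gene divided by the FPKM of Adgre1 (left) or Adipoq (right) in the same library, on log scales; red circles are HP 1 to 3, filled blue circles ND 2 and ND 3, and the open blue circle ND 1. Mmp12 and Itgax lie higher and Lyve1, Cd163, Mrc1 and Retnla lower in HP per Adgre1, while Lep lies higher and Cfd, Cyp2e1, Pck1 and Nrg4 lower in HP per Adipoq.

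Several of the largest rises were outside the macrophage lists. Il1rn, the decoy ligand that blocks the interleukin-1 receptor, had 56.9, 58.2 and 74.3 FPKM in HP, against 0, 0.7004 and 0.154 FPKM in ND (5.51 over 7 libraries and 5.67 over 9). Adam8, a membrane protease of leukocytes, had 179, 152 and 202 FPKM in HP, against 0.582, 2.14 and 4.98 FPKM in ND (5.36). Atf3, a stress-induced transcription factor, had 130, 115 and 151 FPKM in HP, against 0.529, 4.55 and 3.47 FPKM in ND (4.73). The rule that named these 3 genes as large rises kept only genes without overlap between HP and ND. Tm4sf19 (5.28), the signalling regulator Rgs1 (5.27), the coagulation factor F7 (5.07), the ubiquitin-like Ubd (4.99), the immune receptor Cd300c2 (4.97) and the lysosomal sugar-phosphate transporter Slc37a2 (4.82) complete the 12 highest over 7 libraries with Gpnmb, Mmp12, Trem2, Atp6v0d2, Il1rn and Adam8.

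**Figure D4:**
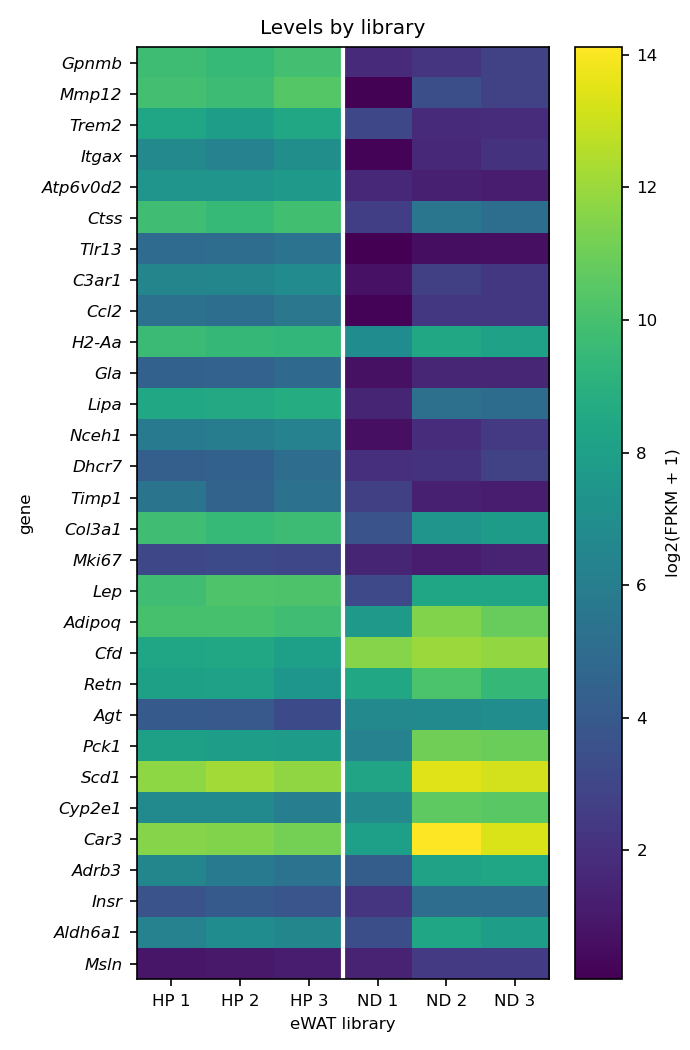
Levels of 30 genes as log2(FPKM + 1) in each HP and ND library of eWAT, from macrophage genes at the top through lysosomal, matrix and proliferation genes to adipocyte and mesothelial genes at the bottom. The top genes are high in all 3 HP libraries. In ND 1 adipocyte genes are low, other than Cfd, with 3048 FPKM there, and Agt, with 101 FPKM. Retn in ND 1 is above every HP library too.

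Surface receptors by which phagocytes bind antibody, complement and debris rose for 18 of 23 tested genes (28 listed) and fell for none, at a median of 2.54 (11 higher over 9 libraries). C3ar1, the receptor for complement fragment C3a, had 87.6, 90.9 and 112 FPKM in HP, against 0.659, 5.71 and 4.11 FPKM in ND (4.05, SE 0.25, limma adjusted p = 0.000145). The integrin chain Itgb2 (CD18) was higher by 4.08, the activating receptor Cd300lb by 3.82, the inhibitory receptors Pirb and Sirpa by 3.38 and 2.99, and the scavenger receptor Msr1 by 3.31. Toll-like receptor and inflammasome genes rose for 18 of 25 and fell for 1, at a median of 1.36. Tlr13, the sensor of bacterial ribosomal RNA, had 30.3, 32.9 and 41.0 FPKM in HP, against 0.0425, 0.487 and 0.544 FPKM in ND (4.55). Cd180, a relative of Tlr4, was higher by 3.94, the RNA sensor Tlr8 by 3.41, Tlr1 by 2.92 and the inflammasome adaptor Pycard by 2.41. Tlr4 itself, the lipopolysaccharide sensor, was not called (0.61, SE 0.26, limma adjusted p = 0.146), with 11.9, 17.4 and 16.1 FPKM in HP, against 0.328, 11.1 and 8.08 FPKM in ND. Nlrp3, the core of the best-known inflammasome, was higher by 0.80 but at no more than 1.40 FPKM.

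The 6 tested genes of the phagocyte oxidase (7 listed), which makes superoxide, all rose, among them its catalytic subunit Cybb (3.15) and the cytosolic subunits Ncf4 (2.55) and Ncf1 (2.52), at a median of 2.61. Signalling genes of phagocytes rose for 23 of 28 tested (29 listed), at a median of 1.72, including the kinase Syk (2.57), the exchange factor Vav1 (2.66) and the phosphoinositide kinase subunit Pik3r5 (2.89). Leukocyte actin and adhesion genes rose for 27 of 30 tested (32 listed), at a median of 2.33. Myo1f, a leukocyte myosin, had 101, 80.7 and 106 FPKM in HP, against 0.329, 5.52 and 3.97 FPKM in ND (4.08). Actin regulators Capg and Cotl1 were higher by 3.93 and 3.24. No gene of the oxidase, signalling or adhesion list was lower. Over 9 libraries 4, 10 and 9 genes of the oxidase, signalling and adhesion lists rose.

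Cd44, the hyaluronan receptor (3.69), and Dock2, an exchange factor of leukocytes (3.06), are among those genes and hold the letters GAGGAAG, the core of many PU.1 binding sites, before their start. The search ran on both strands of RefSeq windows (GRCm38.p6) from 250 bases before to 50 after each gene's start. GAGGAAG is in 17 of 51 macrophage, signalling and adhesion genes that rose and have a window (33.3%) and in 19 of 61 members of these lists with a window, called or not (31.15%). The share was 21.95% of all genes that rose and have a window, 16.3% of tested genes and 15.4% of all 27025 genes with a window. A match is a description of the letters and no evidence of binding. The 250 bases before the start are shown 5′ to 3′ on the gene's strand, with GAGGAAG or its complement CTTCCTC in capitals.
Cd44 (chr2:102901666-102901915, minus strand): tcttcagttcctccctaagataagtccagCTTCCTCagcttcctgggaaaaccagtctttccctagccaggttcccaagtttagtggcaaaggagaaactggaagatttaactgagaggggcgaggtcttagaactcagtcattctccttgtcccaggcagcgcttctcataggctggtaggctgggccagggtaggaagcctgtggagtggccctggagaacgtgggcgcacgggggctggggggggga
Dock2 (chr11:34783906-34784155, minus strand): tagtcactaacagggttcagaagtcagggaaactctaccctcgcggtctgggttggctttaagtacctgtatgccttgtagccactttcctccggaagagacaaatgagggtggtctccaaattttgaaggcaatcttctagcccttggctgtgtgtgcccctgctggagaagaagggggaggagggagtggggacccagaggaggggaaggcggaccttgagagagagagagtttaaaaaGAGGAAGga

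Chemokines, which attract leukocytes, rose for 12 of 21 tested genes (24 listed) and fell for 2, and over 9 libraries 2 rose. Ccl2, which draws monocytes, had 39.0, 34.3 and 49.5 FPKM in HP, against 0.156, 4.04 and 4.08 FPKM in ND (3.03, SE 0.18, limma adjusted p = 0.000136). Ccl9 had 205, 168 and 211 FPKM in HP, against 1.502, 25.7 and 22.6 FPKM in ND (2.95). Both genes had no overlap between the groups. Ccl3, Ccl6 and Ccl8 were higher by 2.09, 1.95 and 1.92. The eosinophil attractant Ccl11 was not called, with 48.1, 47.9 and 37.5 FPKM in HP, against 3.06, 59.4 and 38.5 FPKM in ND.

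Of the chemokine receptors, 6 of 11 tested (15 listed) rose and none fell. Cxcr4 was higher by 1.92, Ccr1 by 1.77, Ackr1 by 1.12 and Ccr2, the receptor for Ccl2, by 1.05. Of 28 listed interleukins, TNF family ligands and colony factors only 16 were tested. Il1b, Il6 and Il10 did not reach 1 FPKM in enough libraries. Tnf, the inflammatory ligand, had 2.11, 1.91 and 2.19 FPKM in HP, against 0, 0.207 and 0.167 FPKM in ND (1.37). Tgfb1, a matrix-inducing growth factor, had 57.2, 45.4 and 58.9 FPKM in HP, against 7.57, 8.92 and 10.6 FPKM in ND (2.34). Besides these, Il1rn, Ebi3 (1.25) and Il16 (0.60) rose. Cytokine receptors rose for 13 of 23 tested (26 listed), and none fell. Il7r, the interleukin-7 receptor, had 41.1, 41.9 and 54.0 FPKM in HP, against 0.0515, 0.632 and 0.926 FPKM in ND (4.71). The TNF receptor Tnfrsf1b was higher by 2.28 and the interleukin-10 receptor chain Il10rb by 1.51. Csf2rb (1.40) and Csf2rb2 (2.46) rose too, but are near copies.

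Genes that present antigen on MHC class II rose for 10 of 14 tested (15 listed), at a median of 1.19, and none fell. H2-Aa, a class II chain, had 791, 676 and 664 FPKM in HP, against 119, 359 and 269 FPKM in ND (1.18). The peptide loader H2-DMb1 was higher by 2.19, the thiol reductase Ifi30 by 3.16 and the class II activator Ciita by 1.48. The co-stimulator Cd86 was not called (0.51, SE 0.20, limma adjusted p = 0.121). Per FPKM of Adgre1, H2-Aa stood at 3.72, 3.46 and 2.56 in HP, against 182, 22.4 and 18.8 in ND, so it rose less than Adgre1 in all 3 HP libraries (two-sided exact permutation test, p = 0.1, the smallest possible). H2 genes have close relatives whose reads may be shared.

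Markers of other leukocytes differed by cell type. Of 6 tested B and plasma cell markers (14 listed) 1 rose and none fell. That list summed to 420 to 480 FPKM in HP and to 245 to 396 FPKM in ND. No gene of 8 tested T and natural killer cell markers (23 listed) or 8 dendritic cell markers (13 listed) was called, at medians of 0.22 and 0.07. The T cell genes Cd3d, Cd3e, Cd3g and Lck summed to 2.07 to 2.93 FPKM in HP and to 3.39 to 6.52 FPKM in ND. Of 9 tested neutrophil and mast cell genes (18 listed) 6 rose, such as the calcium-binding S100a8 (2.60) and the mast cell protease Cpa3, which had 4.14, 4.85 and 6.24 FPKM in HP, against 0.126, 1.26 and 0.824 FPKM in ND (1.57). Of 5 tested eosinophil and type 2 response genes (13 listed) 4 rose and 1 fell, and Arg1, which degrades arginine, was higher by 2.06, at no more than 5.13 FPKM. The rises of phagocyte genes came with a 5-gene macrophage sum of 3849, 2825 and 3981 FPKM in HP, against 105, 578 and 446 FPKM in ND. How much of each rise lies in cell number was not tested.

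Lysosomal enzymes rose for 30 of 42 genes and fell for 1, at a median of 0.98, and over 9 libraries 5 rose. Lipa, the acid lipase that frees cholesterol and fatty acids from engulfed lipid, had 365, 379 and 439 FPKM in HP, against 1.82, 36.4 and 31.2 FPKM in ND (3.51, SE 0.18, limma adjusted p = 0.000101). Gla, the alpha-galactosidase, had 20.7, 21.2 and 27.9 FPKM in HP, against 0.595, 1.97 and 1.97 FPKM in ND (3.02). Psap, the precursor of the saposins, which help to digest sphingolipids, had 3790, 2930 and 3970 FPKM in HP, against 234, 872 and 846 FPKM in ND (2.04). Each enzyme was higher in every HP library than in any ND library. The glucuronidase Gusb was higher by 2.79, the cathepsins Ctsd and Ctsl by 1.95 and 1.93, and the ganglioside and galactolipid enzymes Hexa and Galc by 1.86 and 1.49. The cathepsin Ctsf fell by 0.40.

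Lysosomal membrane proteins rose for 16 of 24 and fell for 1. Slc11a1, the metal transporter of phagosomes, had 149, 117 and 182 FPKM in HP, against 2.33, 13.4 and 16.1 FPKM in ND (3.24). The peptide transporter Slc15a3 was higher by 4.33, Laptm5 by 3.02, Cln3 by 1.57, the coat protein Lamp1 by 1.21 and the calcium channel Mcoln1 by 0.56. Of the 19 proton pump subunits, which acidify the lysosome, 15 rose and 1 fell. Atp6v0a1 had 176, 182 and 185 FPKM in HP, against 28.1, 49.4 and 53.3 FPKM in ND (1.797). Tcirg1, the subunit used in osteoclasts, had 217, 159 and 172 FPKM in HP, against 13.8, 21.3 and 28.7 FPKM in ND (2.82). Atp6v1b2 was higher by 2.09, Atp6v1a by 1.81 and Atp6v0c by 1.55. Atp6v0e2 went the other way, with 21.5, 22.3 and 19.4 FPKM in HP, against 13.9, 51.4 and 39.2 FPKM in ND (-1.06).

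The MiT/TFE factors drive lysosomal genes through E-box letters that include CACGTG. Tfeb had 20.0, 14.9 and 18.01 FPKM in HP, against 8.93, 4.63 and 7.34 FPKM in ND (1.43), Mitf was higher by 1.04 and Tfec by 0.94. Tfe3 was not called (0.58, SE 0.19, limma adjusted p = 0.0752). In the same RefSeq windows CACGTG, which reads alike on both strands, is in 17 of 47 lysosomal and pump genes that rose and have a window (36.2%). The share was 12.59% of all genes that rose and have a window, 11.6% of tested genes and 8.09% of all genes with a window. Over all members of these lists with a window, called or not, it is in 20 of 66 (30.3%). The bases before 4 of these genes are shown, with CACGTG in capitals, the first 2 with a pair of matches each.
Gla (chrX:134601006-134601255, minus strand): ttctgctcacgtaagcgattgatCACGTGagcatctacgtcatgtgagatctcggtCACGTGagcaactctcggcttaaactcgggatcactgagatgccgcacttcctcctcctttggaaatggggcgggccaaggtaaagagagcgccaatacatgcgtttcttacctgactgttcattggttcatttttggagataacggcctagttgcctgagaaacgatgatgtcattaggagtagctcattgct
Ctsd (chr7:142387828-142388077, minus strand): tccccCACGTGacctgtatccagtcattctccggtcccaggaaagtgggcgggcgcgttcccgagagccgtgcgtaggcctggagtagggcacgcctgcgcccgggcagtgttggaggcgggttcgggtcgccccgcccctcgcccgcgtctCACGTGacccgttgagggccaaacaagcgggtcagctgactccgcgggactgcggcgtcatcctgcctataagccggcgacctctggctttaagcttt
Ctsl (chr13:64370521-64370770, minus strand): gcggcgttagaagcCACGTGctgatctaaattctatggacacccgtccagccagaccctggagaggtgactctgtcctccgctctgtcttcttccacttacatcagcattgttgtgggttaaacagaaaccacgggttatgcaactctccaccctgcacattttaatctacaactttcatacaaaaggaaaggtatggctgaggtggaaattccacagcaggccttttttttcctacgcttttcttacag
Atp6v1a (chr16:44139260-44139509, minus strand): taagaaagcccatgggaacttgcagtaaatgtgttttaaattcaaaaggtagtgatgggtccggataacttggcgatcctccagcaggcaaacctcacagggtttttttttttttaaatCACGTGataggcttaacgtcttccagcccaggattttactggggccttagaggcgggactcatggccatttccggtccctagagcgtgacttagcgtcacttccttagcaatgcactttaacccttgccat

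Lipid from the lysosome is stored or exported. Of 16 tested genes of cholesterol efflux and storage (17 listed) 8 rose and 1 fell. Nceh1, which hydrolyses stored cholesterol ester, had 57.4, 64.0 and 76.5 FPKM in HP, against 0.542, 2.65 and 4.54 FPKM in ND (3.89, SE 0.25, limma adjusted p = 0.000178). Soat1, which forms the ester, had 43.2, 41.3 and 53.2 FPKM in HP, against 10.2, 2.89 and 5.39 FPKM in ND (3.22). Genes for making and for splitting the ester were thus both higher. The phospholipid transfer protein Pltp was higher by 2.501 and the exporter Abcg1 by 1.05. Apoe, which carries lipid out of cells and is made by adipocytes too, had 3009, 2452 and 2415 FPKM in HP, against 2303, 5592 and 6110 FPKM in ND (-1.16). The other exporter, Abca1, was not called (-0.20, SE 0.25, limma adjusted p = 0.602).

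Cholesterol synthesis and uptake genes rose for 13 of 22 tested (24 listed) and fell for 1, at a median of 0.75. Insig1, which restrains the SREBP factors, had 206, 194 and 182 FPKM in HP, against 18.4, 69.6 and 62.5 FPKM in ND (1.54). Dhcr7, which makes cholesterol in the last step of a branch of the pathway, had 18.9, 20.9 and 32.7 FPKM in HP, against 3.03, 3.30 and 5.94 FPKM in ND (2.16). Msmo1 (1.61), Fdps (1.41) and Lss (1.25), enzymes along the pathway, were also higher. Fdps had 111 FPKM in ND 1, above every HP library, where it had 43.2 to 50.3 FPKM, so its rise holds for ND 2 and ND 3 only. Hmgcs1, at the start of the pathway, fell by 0.46.

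CCAAT, the letters bound by NF-Y, which acts beside SREBP, was sought in the same windows, which reach 50 bases past the start. It is in a window of all 16 genes of the cholesterol list that have one, 10 of which rose. The share was 42.27% of all genes that rose and have a window and 41.1% of all genes with a window. The 250 bases before 3 genes that rose are shown, with CCAAT or its complement ATTGG in capitals.
Msmo1 (chr8:64733579-64733828, minus strand): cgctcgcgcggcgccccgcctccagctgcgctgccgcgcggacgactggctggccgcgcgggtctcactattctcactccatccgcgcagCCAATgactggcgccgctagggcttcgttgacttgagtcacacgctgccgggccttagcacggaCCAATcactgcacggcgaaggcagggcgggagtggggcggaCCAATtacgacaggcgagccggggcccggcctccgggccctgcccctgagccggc
Insig1 (chr5:28071162-28071411, plus strand): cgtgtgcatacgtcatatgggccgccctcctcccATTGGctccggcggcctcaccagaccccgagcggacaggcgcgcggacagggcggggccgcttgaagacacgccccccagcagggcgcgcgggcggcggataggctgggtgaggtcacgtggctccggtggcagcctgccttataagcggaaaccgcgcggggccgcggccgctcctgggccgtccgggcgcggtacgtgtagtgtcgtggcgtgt
Lss (chr10:76531355-76531604, plus strand): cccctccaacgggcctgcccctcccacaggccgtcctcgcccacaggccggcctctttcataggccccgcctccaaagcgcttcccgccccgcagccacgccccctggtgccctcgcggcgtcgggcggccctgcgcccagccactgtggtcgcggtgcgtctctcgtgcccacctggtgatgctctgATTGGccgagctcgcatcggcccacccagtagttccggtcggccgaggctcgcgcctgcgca

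Matrix proteases rose for 13 of 21 tested genes (22 listed) and fell for 2. After Mmp12 and Adam8, stromelysin Mmp3 was higher by 2.41, Mmp19 by 2.17 and the gelatinase Mmp2 by 1.96, with 67.0, 64.4 and 75.3 FPKM in HP, against 1.47, 14.3 and 19.9 FPKM in ND. Their inhibitors split. Timp1 had 42.6, 22.0 and 39.3 FPKM in HP, against 5.71, 1.48 and 1.25 FPKM in ND (3.86, SE 0.29, limma adjusted p = 0.000277). Timp4, which adipocytes make, had 40.8, 48.6 and 33.5 FPKM in HP, against 16.6, 169 and 128 FPKM in ND (-1.84). The cathepsin inhibitor Cstb was higher by 2.71 and Timp2 by 1.10.

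Fibrillar and associated collagens rose for 12 of 16 tested (17 listed) and none fell, at a median of 1.26, while no member passed over 9 libraries. Col3a1 had 895, 715 and 818 FPKM in HP, against 11.4, 167 and 214 FPKM in ND (2.09, SE 0.21, limma adjusted p = 0.00101). Col1a1 had 227, 160 and 218 FPKM in HP, against 8.30, 34.8 and 57.3 FPKM in ND (2.13). Col12a1, Col1a2 and Col5a2 were higher by 1.51, 1.48 and 1.25. The collagen chaperone Serpinh1 was higher by 1.03, and the matrix proteins Lum, Postn and Bgn by 2.19, 1.73 and 1.30. In contrast, of 16 tested basement membrane genes (18 listed) 1 rose, Hspg2 (0.58), and 2 fell, the laminin chains Lama4 (-0.79) and Lamb2 (-0.83). Per FPKM of Col3a1, Col4a1, a basement membrane collagen, stood at 0.229, 0.341 and 0.294 in HP, against 0.488, 0.832 and 0.994 in ND.

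Fibroblast and progenitor markers rose for 7 of 17 tested (19 listed), and none fell. S100a4, which fibroblasts and macrophages express, had 517, 363 and 388 FPKM in HP, against 28.4, 68.7 and 36.6 FPKM in ND (3.03). Mfap5 was higher by 1.26 and the growth factor receptor Pdgfrb by 0.90. Pdgfra, the defining receptor of adipocyte progenitors, was not called, with 18.4, 20.2 and 20.0 FPKM in HP, against 2.69, 14.9 and 14.3 FPKM in ND (0.39, SE 0.12, limma adjusted p = 0.062).

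Cell cycle genes rose for 21 of 32 tested (33 listed), and none fell, at a median of 1.35 (5 rose over 9 libraries). Mki67, the proliferation antigen, had 7.64, 8.41 and 7.78 FPKM in HP, against 1.81, 1.25 and 1.60 FPKM in ND (1.88). The replication helicase subunit Mcm6 had 21.7, 18.2 and 22.2 FPKM in HP, against 4.48, 4.83 and 5.85 FPKM in ND (1.77). Ccna2, Mcm3 and Pcna, of DNA replication, were higher by 2.17, 1.63 and 1.45. Ube2c was higher by 2.18, but ND 1 had 15.3 FPKM, above the 13.3 to 13.4 FPKM of HP. Of 19 tested immediate early genes (20 listed) 7 rose, such as Egr2 (3.59) and Fos (3.04), and 1, Ier3, fell, at a median of 0.48.

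Adipocyte hormones moved in opposite directions. Lep, leptin, which rises with fat mass, had 899, 1196 and 1186 FPKM in HP, against 7.97, 323 and 317 FPKM in ND (1.76, SE 0.22, limma adjusted p = 0.00211). Cfd, adipsin, had 337, 349 and 251 FPKM in HP, against 3048, 4074 and 3626 FPKM in ND (-3.63, SE 0.28, limma adjusted p = 0.000316). Agt, angiotensinogen, had 15.4, 14.7 and 8.31 FPKM in HP, against 101, 106 and 121 FPKM in ND (-3.09, SE 0.26, limma adjusted p = 0.000451). For Cfd and Agt all 3 ND libraries, ND 1 among them, lay far above HP, and both fell over 9 libraries too (-3.52 and -3.04). ND 1 was out of line with its adipocyte RNA, however. Per FPKM of Adipoq, Cfd stood at 15.1 in ND 1, against 1.46 in ND 2 and 1.99 in ND 3. Agt per Adipoq stood at 0.498, 0.0382 and 0.0661 in ND 1, ND 2 and ND 3. Whether Cfd and Agt in ND 1 stem from adipocytes was not tested. Adipoq, adiponectin, had 1027, 1037 and 908 FPKM in HP, against 202, 2781 and 1826 FPKM in ND (-1.19, and -0.03 over 9 libraries, limma adjusted p = 0.99). Nrg4, a hormone that acts on liver in mice, had 12.4, 14.8 and 12.7 FPKM in HP, against 5.74, 89.3 and 72.7 FPKM in ND (-2.52). The secreted factor Metrnl was higher by 2.46 (2.67 over 9 libraries), and Retn, resistin (-1.91), and the retinol carrier Rbp4 (-1.40) fell. In all, 4 of 19 tested adipokines (20 listed) rose and 7 fell. The summed adipocyte markers were lower too, at 18683, 17405 and 15997 FPKM in HP, against 31704 and 20555 FPKM in ND 2 and ND 3, while the macrophage sum was higher, and their part in the falls below was not tested.

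Adipoq was lower in HP than in ND 2 and ND 3 and higher than in ND 1, and other adipocyte genes were set against it within each library. Lep per Adipoq stood at 0.875, 1.15 and 1.31 in HP, against 0.0395, 0.116 and 0.173 in ND. Cfd per Adipoq stood at 0.329, 0.337 and 0.277 in HP, against 15.1, 1.46 and 1.99 in ND. Pck1 per Adipoq stood at 0.259, 0.237 and 0.250 in HP, against 0.382, 0.766 and 1.07 in ND. Relative to Adipoq, leptin was thus higher, and adipsin and Pck1 lower, in every HP library than in any ND library, although the level of Pck1 itself was below HP in ND 1. Fasn (0.307 to 0.383 in HP, 0.120 to 0.171 in ND) and Pparg (0.0571 to 0.0616 in HP, 0.0166 to 0.0392 in ND) were higher per Adipoq (two-sided exact permutation test, p = 0.1 for each of these 5, the smallest possible). Adjusted over the 51 ratios tested, that permutation p is 0.165. Against ND 2 and ND 3, any gene that fell less than Adipoq is higher per Adipoq, and by level neither Fasn nor Pparg was called. Plin1, Slc2a4, Insr and Aldh6a1 per Adipoq overlapped between the groups.

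Among transcription factors of adipocytes 5 of 19 tested (20 listed) fell and 2 rose, at a median of -0.45. None was called over 9 libraries, where the median was 0.11. Ebf2 had 3.44, 4.11 and 4.84 FPKM in HP, against 0.362, 11.5 and 9.07 FPKM in ND (-1.14), and Ebf1 (-1.11) and the mitochondrial coactivator Ppargc1a (-1.21) fell too. Cebpb and Esrra were higher by 1.25 and 0.66. Pparg, the master factor, was not called (-0.46, SE 0.15, limma adjusted p = 0.0789). In the insulin pathway 8 of 20 fell and 3 rose, at a median of -0.41. With 9 libraries no gene of this list was called and the median was 0.42, so these falls rest on ND 2 and ND 3. Insr, the insulin receptor, had 11.5, 15.8 and 12.6 FPKM in HP, against 3.51, 33.1 and 32.7 FPKM in ND (-1.26, SE 0.16, limma adjusted p = 0.00257). Its substrate Irs2 (-1.30), the kinase Akt2 (-0.86), the inhibitory adaptor Grb10 (-1.36) and Pde3b (-1.54), which mediates the block of lipolysis by insulin, fell as well. The glucose transporter Slc2a4 fell by 0.93 (SE 0.27, limma adjusted p = 0.0481), with 25.6, 28.8 and 20.0 FPKM in HP, against 2.54, 62.7 and 36.0 FPKM in ND.

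Lipid synthesis did not move as a block. Scd1, the main desaturase, had 3389, 4571 and 3545 FPKM in HP, against 306, 11074 and 9242 FPKM in ND (-1.41). Scd2, its relative, had 143, 181 and 154 FPKM in HP, against 21.7, 23.0 and 36.9 FPKM in ND (2.401, and 2.54 over 9 libraries). Acaca, which makes malonyl-CoA, fell by 1.63, while the acetyl-CoA synthetase Acss2 and the elongase Elovl1 were higher by 1.05 and 1.13. Fasn, fatty acid synthase, was not called (0.15, SE 0.16, limma adjusted p = 0.532). The lipogenic list had 5 of 20 higher and 3 lower, where 15.7% of all genes tested were higher and 7.4% lower. Of 16 tested triglyceride synthesis genes (17 listed) 6 fell and 2 rose, and none was called over 9 libraries. Pck1, which supplies glycerol phosphate, had 266, 246 and 227 FPKM in HP, against 77.2, 2130 and 1954 FPKM in ND (-3.05, SE 0.20, limma adjusted p = 0.000197). Gpat3 and Mogat1, acyltransferases, fell by 2.08 and 2.59, and Agpat3 by 0.68, while Agpat2 and Gpd1 were higher by 0.99 and 1.33.

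Lipolysis genes fell for 6 of 17 tested (18 listed), and none rose, at a median of -0.51. With 9 libraries none was called and the median was 0.30. Adrb3, the adrenergic receptor of adipocytes, had 92.0, 56.9 and 41.4 FPKM in HP, against 17.8, 282 and 331 FPKM in ND (-2.33, SE 0.36, limma adjusted p = 0.00508). The lipases Pnpla2 (-0.99) and Lipe (-0.88), the lipase activator Abhd5 (-0.51) and the niacin receptor Hcar2 (-1.14) fell. In ND 1, where most adipocyte genes were low, Abhd5 was above HP, at 94.3 FPKM against 59.2 to 67.9 FPKM in HP. Of 12 tested lipid droplet genes (14 listed) 4 fell and 2 rose, at a median of -0.50. None of them was called over 9 libraries, at a median of 0.17. The adipocyte coat proteins Plin1 (-1.06) and Plin4 (-1.58) and Fitm2 (-0.82) fell, while Plin3 and Plin2, found in many cells, were higher by 0.86 and 2.26. In fatty acid uptake 3 of 16 genes were higher, Fabp5 (2.17), Lrp1 (1.27) and Acsl5 (0.80), and none was lower. The counts for fatty acid uptake are near the shares of all genes tested, 15.7% higher and 7.4% lower. Lipolysis and lipid droplet genes were lower more often than that 7.4%.

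Enzymes that break down branched-chain amino acids fell for 14 of 23 and rose for 1, at a median of -0.86. Aldh6a1, of the valine pathway, had 76.6, 117 and 89.7 FPKM in HP, against 9.99, 319 and 239 FPKM in ND (-1.56). Ivd, of leucine breakdown, had 48.0, 58.0 and 60.1 FPKM in HP, against 29.4, 152 and 144 FPKM in ND (-1.41). Pccb (-1.08), Mccc1 (-0.93) and Mccc2 (-0.89) were also lower. Bcat1, the cytosolic aminotransferase, was higher by 1.32, with 9.09, 9.17 and 10.8 FPKM in HP, against 0.905, 2.66 and 3.99 FPKM in ND. Over 9 libraries no gene of the list was called, at a median of 0.01. Of 25 genes of the tricarboxylic acid cycle and pyruvate entry 6 fell, such as Pcx (-0.71), Pdha1 (-0.73), Suclg2 (-0.77) and Sdha (-0.75), and none rose. None of the 25 was called over 9 libraries, at a median of 0.27, against -0.28 over 7. Fatty acid oxidation and the respiratory chain showed few calls, 2 higher and 4 lower of 25, with Cpt1a (0.65) and Hadha (0.60) higher, and 2 in each direction of 42 tested. In glycolysis 5 of 20 rose and 2 fell, not far from the 15.7% and 7.4% of all genes tested. Hk3, the hexokinase of leukocytes, had 52.5, 39.6 and 59.95 FPKM in HP, against 0.743, 1.68 and 2.01 FPKM in ND (4.16), and the regulator Pfkfb3 fell by 1.04.

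**Figure D5:**
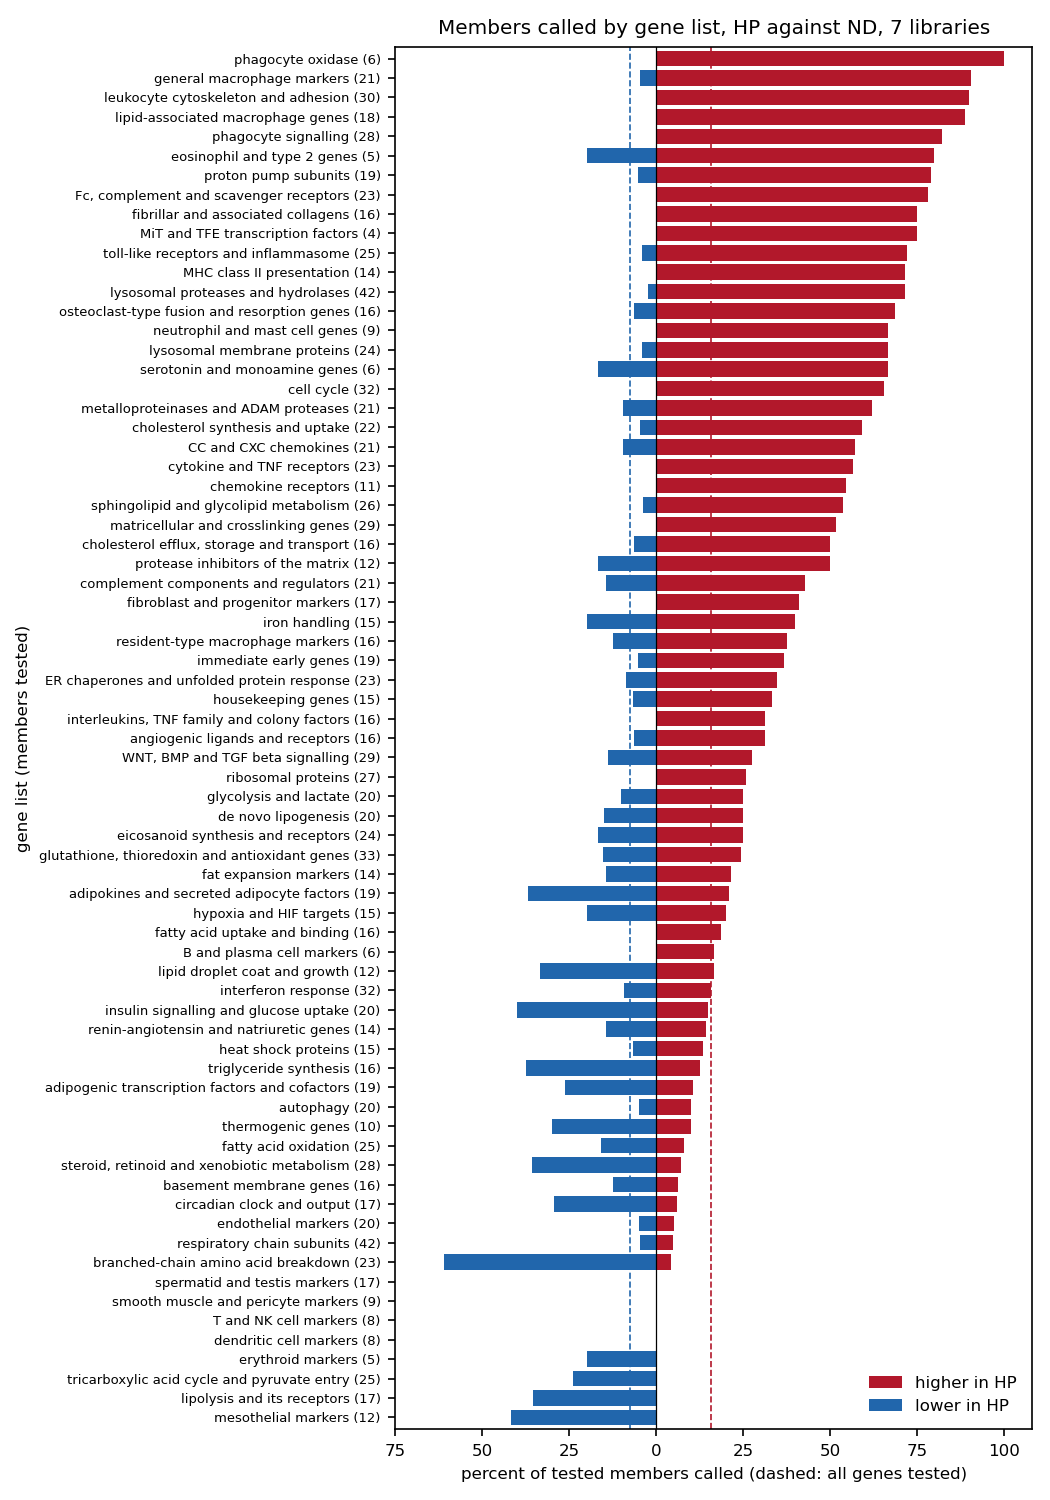
Percent of tested members called higher (red, to the right) or lower (blue, to the left) in HP over 7 libraries for each gene list with at least 4 tested members; the number tested is in parentheses. Dashed lines mark the 15.7% higher and 7.4% lower of all genes tested. Macrophage, phagocyte, proton pump and collagen lists reach far past the dashed line on the right, and branched-chain amino acid, mesothelial and insulin lists past that on the left.

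Detoxifying enzymes held the deepest fall. Cyp2e1, a cytochrome P450 that oxidises ethanol and ketones, had 106, 111 and 65.3 FPKM in HP, against 102, 1612 and 1492 FPKM in ND (-4.07, SE 0.24, limma adjusted p = 0.000138). ND 1 lay within the HP range, and over 9 libraries Cyp2e1 was not called (-2.76, limma adjusted p = 0.376). Per Adipoq, however, Cyp2e1 stood at 0.103, 0.107 and 0.0719 in HP, against 0.502, 0.580 and 0.817 in ND, with no overlap. The steroid, retinoid and xenobiotic list had 10 of 28 tested (32 listed) lower and 2 higher, and none called over 9 libraries. Ces1d, a lipase of lipid droplets (-2.55), its near copy Ces1f (-1.92), with which it may share reads, and Fmo1 (-1.71) fell. Other genes among the 12 deepest falls were Acsm3, a medium-chain acyl-CoA synthetase (-3.65), Eci3 (-3.27), Adgrg2 (-2.97), Fam13a (-2.92), Mycl (-2.79) and Tmem88b (-2.55). Acsm3 had 0.593, 0.850 and 0.856 FPKM in HP, against 0.358, 23.2 and 19.3 FPKM in ND. Adgrg2, which is known from the epididymal duct, had 3.66, 5.28 and 1.40 FPKM in HP, against 6.43, 15.1 and 63.4 FPKM in ND. Its level was highest in ND 3. A list of 19 epididymal genes summed to 26743, 12.4 and 77.5 FPKM in ND 1, ND 2 and ND 3. Whether the Adgrg2 values stem from the duct was not tested.

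Besides Cfd and Agt, 4 genes fell over 9 libraries. Dpm1 had 17.4, 11.5 and 14.3 FPKM in HP, against 61.2, 90.0 and 38.9 FPKM in ND (-2.002). Immp2l (-1.33) and Spaca6 (-1.95) fell less far. Crygn was listed at 0 in HP and at 14.5, 6.89 and 5.52 FPKM in ND. The rule that named these 4 kept only genes without overlap between the groups.

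Of 6 tested serotonin and monoamine genes (14 listed) 4 rose and 1, the monoamine oxidase Maob, fell. Tph2, the neuronal form of the enzyme that starts serotonin synthesis, had 36.1, 37.8 and 43.1 FPKM in HP, against 0.273, 1.16 and 0.250 FPKM in ND (4.603, and 4.73 over 9 libraries). The serotonin receptor Htr2b had 7.14, 6.40 and 12.1 FPKM in HP and at most 0.132 FPKM in ND (3.10). In the eicosanoid list 6 of 24 tested (27 listed) rose and 4 fell, where 15.7% of all genes tested rose and 7.4% fell. Hpgds, which makes prostaglandin D2 in blood cells, had 31.5, 37.9 and 41.5 FPKM in HP, against 0.181, 2.62 and 2.34 FPKM in ND (3.44). The thromboxane synthase Tbxas1 was higher by 3.27 and Pla2g7, which cleaves platelet-activating factor, by 2.25. Pla2g2d, a secreted phospholipase, fell by 2.003.

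Vessel and surface cells differed less than macrophages. Of 20 endothelial markers 1 rose, the apelin receptor Aplnr (1.68), and 1 fell, the retinol-binding Rbp7 (-1.65), at a median of 0.04. Pecam1, Cdh5, Kdr and Tie1 summed to 188 to 214 FPKM in HP and to 11.7, 183 and 219 FPKM in ND 1, ND 2 and ND 3. Angpt2, which loosens vessels, was higher by 1.48, and the vessel growth factor Vegfa fell by 0.91, with 81.1, 96.4 and 62.2 FPKM in HP, against 8.29, 137 and 161 FPKM in ND. Mesothelial markers, of the pad's outer surface, fell for 5 of 12 tested (15 listed), and none rose, at a median of -1.17. Msln, mesothelin, had 0.886, 1.02 and 1.27 FPKM in HP, against 1.71, 4.40 and 4.74 FPKM in ND (-1.44), and Lrrn4 fell by 1.51. Over 9 libraries no endothelial or mesothelial gene was called.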

How the data were processed

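RNA was extracted with TRIzol and mRNA was made into TruSeq libraries, per the labels' protocols. The authors deposited FPKM values for 23474 gene identifiers. The submitters' processing notes name CASAVA (1.8.2), STAR (2.4.0) and Cufflinks (2.1.1) without their roles. Genome build, annotation and strandedness of counting: not given in the sources used here. Reads of overlapping or antisense genes may therefore be mixed. Names came from GENCODE M21 (22671 identifiers matched), and groups from sample titles.

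The log2(FPKM + 1) values were fitted with limma (version 3.58.1, R 4.3.3) with a variance trend. Tests were two-sided and Benjamini-Hochberg adjusted over all genes tested, at 0.05. The fit over 7 libraries has 2 ND libraries. FPKM carries no counts, so no counting interval can be given. From the steps of low values, HP 3 had 0.933 and ND 3 had 1.07 times the depth of HR 3, and HP 1, HP 2, ND 1 and ND 2 gave weaker peaks. The pipeline was tested on simulated data.

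The members and the 73 gene lists were chosen with earlier results of these data known. Named genes were, in each fit, up to 12 higher and 12 lower genes of largest difference with groups that did not overlap and a mean of 5 FPKM or more in the higher group, then up to 5 members of each list by p, and genes whose role the text needed. A few genes are not reported here. Alternatives were another pseudocount, no filter on low values, 4 scalings, a fit of HP and ND alone, a fit with no trend, the replicate block, each library left out, and other sets of libraries. The scaling without mitochondrial and testis genes was chosen after seeing the data. Figures were drawn with matplotlib 3.10.9.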

Additional observations from a re-analysis of the deposited data

How the results depend on the processing

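Over 9 libraries, 304 genes were called (limma). The count was 162 at a pseudocount of 0.1 FPKM, 16 with quantile normalization and 192 with libraries rescaled without mitochondrial and testis genes. Leaving out 1 library gave 0 to 593 calls. It was 0 without any of HP 1, HP 2, HP 3, ND 2, ND 3 or HR 1 (with limma, 925 to 2324 genes then had an unadjusted p under 0.05), 134 without HR 3, 593 without HR 2 and 244 without ND 1. Over 7 libraries, 3013 genes were called, and leaving out 1 library gave 1508 (without HP 3) to 3609 (without ND 2). With HR 2 added there were 244. Rescaling to the same sum took the median difference of all genes over 9 libraries to 0.36, against 0.09, and rescaling without mitochondrial and testis genes to 0.27. Same-numbered HP and ND libraries deviated together with correlations of 0.618, 0.445 and 0.0896, and HP 3 deviated most like ND 2, so the numbers are no evidence of pairs. With the replicate block 0 genes were called over 9 libraries (1332 at an unadjusted p under 0.05, limma) and 2241 over 7.

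Of the named genes over 7 libraries, only Cd36, Ccl11, Abca1 and Fasn, none of them called, changed sign under an alternative. None of these alternatives put ND 1 back, so they do not show how far a sign rests on leaving it out. List medians did change sign with ND 1 in. The insulin list had -0.41 over 7 libraries and 0.42 over 9, and the lipolysis list -0.51 and 0.30. In the libraries under 1000 FPKM of spermatid transcripts Cd36 stood at -0.0099 and Fasn at -0.05, and Fasn stood at -0.0199 with quantile normalization. With 1 library left out Cd36 ran from -0.0925 to 0.391 and Ccl11 from -0.418 to 0.19, with 0.0038 without HP 3. With the replicate block Abca1 stood at 0.004. Over 9 libraries Adipoq turned to 0.26 with quantile normalization, 0.33 rescaled to the same sum and 0.22 rescaled without mitochondrial and testis genes. With 1 library left out it ran from -1.19 (without ND 1) to 0.70 (without ND 2), with 0.40 without ND 3 and 0.03 without HP 3. The cause of these changes was not tested. Lists and genes that differ by small amounts are limited by the 2 ND libraries and the unknown depth.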

Other observations

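Iron handling genes moved in both directions in HP against ND over 7 libraries, with 6 of 15 tested (16 listed) higher and 3 lower. Hmox1, which opens haem and frees its iron, had 110, 92.8 and 133 FPKM in HP, against 3.15, 17.0 and 18.5 FPKM in ND (2.58, SE 0.17, limma adjusted p = 0.000199). The ferritin light chain Ftl1, part of the shell that stores iron, had 2497, 1694 and 2558 FPKM in HP, against 910, 750 and 621 FPKM in ND (1.69). The endosomal iron reductase Steap3 was higher by 1.67. Both Hmox1 and Ftl1 were higher in every HP library than in any ND library. Cp, ceruloplasmin, which oxidises iron for export, had 29.2, 42.8 and 26.7 FPKM in HP, against 6.25, 104 and 88.2 FPKM in ND (-1.54). Its fall rests on ND 2 and ND 3.

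Complement components rose for 9 of 21 tested (22 listed) and fell for 3. C1qa, a chain of the recognition molecule made by macrophages, had 240, 165 and 244 FPKM in HP, against 52.5, 67.7 and 53.9 FPKM in ND (1.804). Clock genes rose for 1 of 17 tested (18 listed) and fell for 5. Per3, a period gene of the clock, had 6.09, 7.91 and 5.95 FPKM in HP, against 10.9, 14.3 and 13.8 FPKM in ND (-0.99). All 3 ND libraries were above HP for Per3, while Nr1d1 (-1.10), a nuclear receptor of the clock, had ND 1 below every HP library. The labels used here give no hour of collection.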
